A study of Mus musculus with 1536 samples.

Results

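C1ql1, C1ql2, C1ql3, Cbln1, Cbln2 and Cbln4, genes for secreted proteins that organize synapses, were described in single mouse serotonin neurons. They are 6 of the 53263 genes in the deposited table and were chosen by name, and all 6 were among the 25522 genes with a read in at least 3 cells. The cells came from Sert-Cre;Ai14 mice on a C57BL/6J background, 40 to 45 days old, in which a Cre transgene under control of the serotonin transporter gene switches on the red fluorescent protein tdTomato, also in any cell that expressed the transgene earlier. Single tdTomato-positive cells were sorted into wells and each was made into 1 library with Smart-seq2, which copies full-length polyadenylated RNA and carries no molecular identifiers, so counts are of reads and not of molecules. One dissection took the principal dorsal raphe (pDR) alone, with 290 cells on 5 plates. The other, called the mixed dissection here, is labelled as the whole dorsal raphe, and by the methods of the study it also took the caudal dorsal raphe (cDR) and the median raphe (MR). It holds 709 cells on 11 plates, so that its cells cannot be placed in one of these nuclei by the labels. All groups share the Cre and reporter alleles, and there was no treatment.

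The study took several brains for each dissection, but the labels do not tie cells to animals, so each dissection was treated as 1 sample and no p-value was computed. Differences are given with the spread over plates and with the number of plates that show the same direction, and plates of one dissection may share animals. Values are CPM, reads of a gene scaled to the same total of reads on genes in every cell. The median depth was 755926 reads on genes in a pDR cell and 869546 in a mixed cell. The serotonin neuron label was checked on its markers. Tph2, which codes for the enzyme that starts serotonin synthesis in neurons, averaged 9608 CPM, and Tph2, Slc6a4, Slc18a2 and Fev summed to 16580 CPM. The microglial genes C1qa, C1qb, C1qc, Cx3cr1, Csf1r and P2ry12 summed to 0.375 CPM, so complement C1q itself, which shares a domain with these proteins, was near 0.

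C1q-like and cerebellin proteins each carry a C1q domain and assemble into multimers. A neuron releases them at its synapses, where they bridge receptors on the facing membranes. Cerebellins bind neurexins on the presynaptic side, and Cbln1 and Cbln2 bind delta glutamate receptors such as Grid1 on the postsynaptic side, while Cbln4 binds the netrin receptors Dcc and Neo1. C1q-like proteins bind the adhesion receptor Adgrb3, and C1ql2 and C1ql3 also bind kainate receptors (Grik2, Grik4) and Nrxn3. Cbln1 is best known from the cerebellum, where granule cells use it to hold their synapses on Purkinje cells, and C1ql1 from climbing fibres onto the same cells.

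The genes of each family resemble each other, so it was checked whether a 75-base read could tell them apart. The longest run of bases that any 2 of the 6 share in their annotated transcripts (GENCODE M21, mm10) was 38 bases, between C1ql2 and C1ql3, which is shorter than a read. The coding stretch around it is shown for the 3 C1ql genes, 1 read long, 5′ to 3′, with capitals for the 56 bases that all 3 share. It starts at coding base 400 of C1ql1, 487 of C1ql2 and 391 of C1ql3.
C1ql1: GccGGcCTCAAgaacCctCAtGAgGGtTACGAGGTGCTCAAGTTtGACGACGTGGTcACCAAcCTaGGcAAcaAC
C1ql2: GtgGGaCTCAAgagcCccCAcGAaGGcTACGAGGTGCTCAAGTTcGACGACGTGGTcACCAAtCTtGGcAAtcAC
C1ql3: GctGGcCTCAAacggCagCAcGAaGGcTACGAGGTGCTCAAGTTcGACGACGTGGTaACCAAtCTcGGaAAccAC
The same was done around the longest run that Cbln1 and Cbln4 share in their coding sequences, from coding base 58 of Cbln1 and 67 of Cbln4, with capitals for the 58 bases both share.
Cbln1: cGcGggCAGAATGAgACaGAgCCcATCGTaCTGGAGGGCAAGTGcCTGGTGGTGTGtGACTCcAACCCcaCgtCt
Cbln4: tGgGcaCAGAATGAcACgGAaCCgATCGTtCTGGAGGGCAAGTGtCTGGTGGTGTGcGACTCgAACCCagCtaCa
In these windows C1ql2 and C1ql3 differ at 12 bases, C1ql1 and C1ql2 at 13, C1ql1 and C1ql3 at 16, and Cbln1 and Cbln4 at 17. A read that spans one of these windows therefore holds differing bases. Among the cerebellins, the runs that Cbln2 shares with Cbln4 (21 bases) and with Cbln1 (18 bases) are longer than the 14 bases shared by Cbln1 and Cbln4, and all are shorter than a read.

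The genes lie at separate loci in mm10, except that C1ql3 and Cbln4 share chromosome 2. C1ql1 lies at chr11:102939264-102946688 on the minus strand, C1ql2 at chr1:120340582-120343174 on the plus strand and C1ql3 at chr2:13003457-13011806 on the minus strand. Cbln1 lies at chr8:87468405-87472609 and Cbln4 at chr2:172036233-172043466, both on the minus strand, and Cbln2 lies on chromosome 18. The counting ignored strand, so reads of a gene on the opposite strand that overlaps a gene cannot be told from its own. This may touch C1ql1 (Gm26668), C1ql3 (Gm37811 and Gm37824) and Cbln1 (Gm2694), whereas C1ql2, Cbln2 and Cbln4 overlap no other gene of the table. The overlap is of annotated gene spans, introns included, and whether exons overlap was not checked.

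Cbln2 and Cbln4 were each read in most of the pooled serotonin neurons, and both together in 408 of the 999 cells. The other 4 genes were read in smaller subsets. In the mixed dissection alone, Cbln4 was read in 47.5% of cells. Cbln2 had a read in 758 of 999 cells (75.9%, exact 95% interval 73.1 to 78.5) and Cbln4 in 569 cells (57.0%, 53.8 to 60.1). C1ql1 was found in 292 cells (29.2%, 26.4 to 32.2), Cbln1 in 275 cells (27.5%, 24.8 to 30.4), C1ql3 in 262 cells (26.2%, 23.5 to 29.1) and C1ql2 in 39 cells (3.90%, 2.79 to 5.30). These intervals cover counting error only, and a cell is counted here and below from 1 read. The relatives C1ql4 and Cbln3, read as part of the same families, were found in 18 and 10 cells.

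A share of cells and a level were different quantities for these genes. Among cells with a read, the median was 105 CPM for Cbln4 and 101 CPM for Cbln2, but 8.03 CPM for Cbln1, so Cbln1 and C1ql3 were read in similar numbers of cells at unlike levels. For C1ql3 the median was 28.2 CPM and the middle 80% of the cells with a read ran from 2.89 to 173 CPM, the widest of the 6 on a ratio scale. Per kilobase of exon, which allows levels of different genes to be compared, the mean over all cells was 39.5 CPM for Cbln2, 31.6 for Cbln4, 6.70 for C1ql3, 5.40 for C1ql1, 0.96 for Cbln1 and 0.49 for C1ql2. This order is that of the pooled cells. In pDR alone Cbln4 (42.3 CPM per kilobase) stood above Cbln2 (27.8), Cbln1 (1.02) above C1ql3 (0.92) and C1ql2 (0.67) above C1ql1 (0.31), while in the mixed dissection Cbln2 (44.3) stood above Cbln4 (27.2), followed by C1ql3 (9.06), C1ql1 (7.49), Cbln1 (0.94) and C1ql2 (0.42). Over the 16 plates, Cbln2 stood above Cbln4 on 10, C1ql3 above C1ql1 on 12 and Cbln1 above C1ql2 on 13. The mean of the plates was 38.1 ± 13.7 CPM per kilobase (SD, n = 16 plates) for Cbln2 and 30.2 ± 17.3 for Cbln4. It was 7.34 ± 9.27 for C1ql3 and 5.89 ± 5.85 for C1ql1. These SDs pool the dissections and do not pair the genes on a plate, so they do not decide the order within either pair.

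Most cells held a combination. Of the 999 cells, 187 had a read of 1 of the 6 genes, 424 of 2, 293 of 3, 69 of 4 and 1 of 5, while 25 had a read of none. The 6 genes occurred in 35 combinations. Cbln2 with Cbln4 and no other was the most frequent, in 233 cells (23.3%, exact 95% interval 20.7 to 26.1), followed by C1ql1 with C1ql3 and Cbln2 in 99 cells, of which 98 came from the mixed dissection, and by Cbln1 with Cbln2 and Cbln4 in 79 cells. Cbln2 or Cbln4 had a read in 919 cells (92.0%), any of the 3 C1ql genes in 441 cells (44.1%), and a C1ql gene without any of the 3 cerebellins in 45 cells.

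The dissections were then compared, to ask which of the genes differ between cells of the pDR and cells that also come from the cDR and MR. C1ql1 and C1ql3 were lower in pDR, and Cbln4 was found in more pDR cells and Cbln2 in fewer. C1ql1 and C1ql3, 2 of the 6 genes, were at least 2-fold lower in pDR on the scale of the log2 ratio of mean CPM plus 1, and no member was 2-fold higher. Of all genes tested, 0.901% were 2-fold lower and 1.54% 2-fold higher.

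C1ql1 averaged 0.747, 0.390, 0.158, 0.198 and 0.405 CPM on the 5 pDR plates, against a lowest value of 3.22, a median of 9.43 and a highest of 24.5 CPM on the 11 mixed plates. The plates of the dissections did not overlap. All pDR plates lay below all mixed plates for 2 of the 6 genes (2.54% of all genes tested) and above them for 0 of the 6 (2.43%). C1ql1 had a read in 18 of 290 pDR cells (6.21%, exact 95% interval 3.72 to 9.63) and in 274 of 709 mixed cells (38.6%, 35.0 to 42.3), with a log2 ratio of -3.05.

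C1ql3 averaged 2.19, 3.19, 1.39, 2.59 and 1.76 CPM on the pDR plates and 5.27, 10.8 and 77.0 CPM at the lowest, median and highest mixed plate, again without overlap (log2 ratio -2.84). Its share of cells differed less than its level, since 64 pDR cells (22.1%) and 198 mixed cells (27.9%) had a read. The cells with a read differed in level, with a median of 8.09 CPM in pDR and 75.0 CPM in the mixed dissection.

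Cbln4 and Cbln2 differed between the dissections in how many cells had a read. Cbln4 averaged 162, 82.0, 83.3, 181 and 119 CPM on the pDR plates and 13.4, 62.3 and 133 CPM at the lowest, median and highest mixed plate, which overlap. Its share was 80.0% (232 cells) in pDR and 47.5% (337 cells) in the mixed dissection, and by plate 75.3 to 85.7% against 11.1 to 62.5%, which do not overlap. Cbln2 went the other way, with 57.9% (168 cells) in pDR and 83.2% (590 cells) in the mixed dissection, and 46.4 to 69.8% against 76.3 to 92.6% by plate. Its plate means, 88.5, 79.0, 93.5, 49.5 and 72.2 CPM in pDR, overlapped those of the mixed dissection, where the lowest, median and highest were 86.9, 115 and 210 CPM.

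Cbln1 and C1ql2 showed no such separation. Cbln1 averaged 3.85, 2.62, 3.07, 3.85 and 1.96 CPM on the pDR plates, within the range of the mixed plates of 1.79 to 4.18 CPM. C1ql2 averaged 1.21, 1.00, 1.21, 2.23 and 1.85 CPM on the pDR plates, and from 0 to 2.17 CPM with a median of 0.76 on the mixed plates. It had a read in 18 pDR cells (6.21%) and 21 mixed cells (2.96%), too few for the level on a plate to be read closely.

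**Figure D1:**
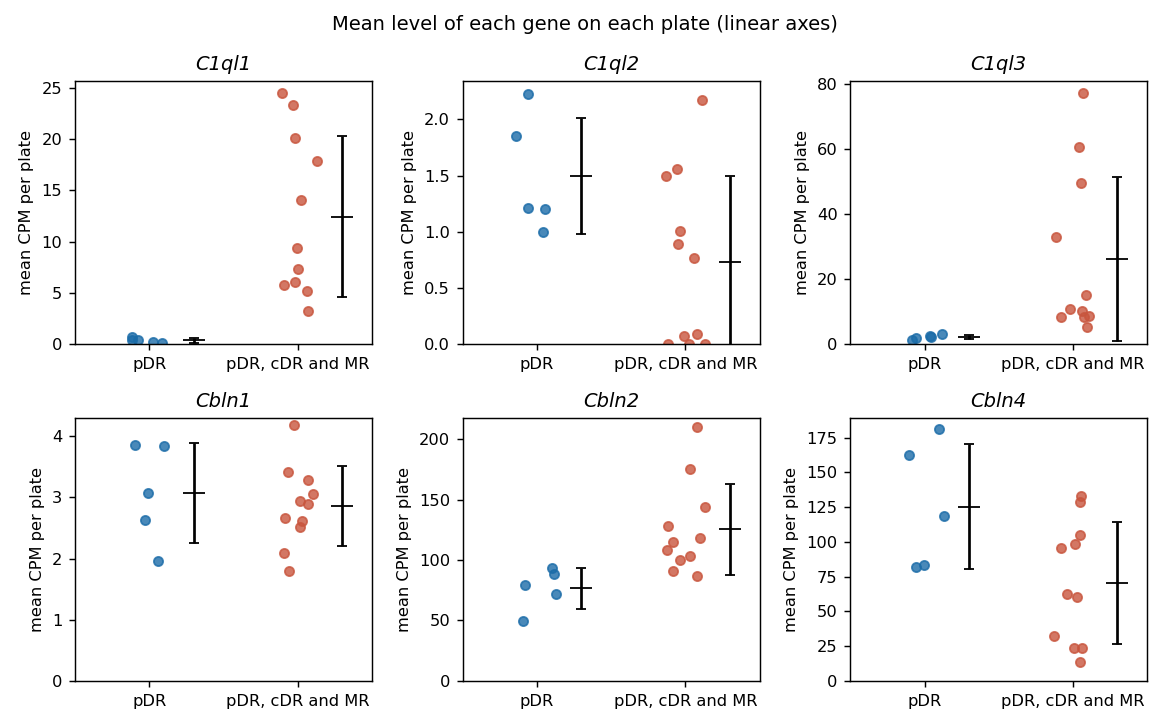
Mean CPM of each gene on each plate (vertical axis, linear), with 1 point per plate for the 5 pDR plates and the 11 plates of the mixed dissection and the mean ± SD of the plates beside them, cut at 0. The pDR points of C1ql1 and C1ql3 lie below all others, those of Cbln1 lie within the mixed range, and the mixed plates spread from 5.27 to 77.0 CPM for C1ql3.

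The mixed plates were unlike each other. Plates 48, 55, 56 and 67 were low in Cbln4, with 23.9, 32.2, 13.4 and 23.4 CPM, and high in C1ql1 and C1ql3. On these plates Zeb2 had a read in 57.9, 36.5, 44.4 and 23.3% of cells, against 10.0 to 16.2% on the other mixed plates. The labels do not say how each plate divides between the nuclei, so tissue and plate cannot be told apart for them. The oligodendrocyte genes Mbp, Mog, Mag and Mobp, none of them at 0, summed to 58.6 CPM in pDR and 171 CPM in the mixed dissection, led by Mbp at 48.0 and 143 CPM. Most of that gap was 1 mixed cell with 61351 CPM of Mbp. Without it the mixed dissection stood at 72.3 CPM, and the medians per cell were 21.8 CPM in pDR and 21.5 CPM in the mixed dissection.

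Zeb2, which codes for a zinc finger transcription factor, marked the cells with high C1ql3. It had a read in 150 cells, 147 of them in the mixed dissection. In cells with Zeb2, C1ql1 and C1ql3 were at least 2-fold higher (2 of 6, where 1.69% of all genes tested were higher), and Cbln1 and Cbln4 were at least 2-fold lower. With C1ql2, which was at 0 and is past the threshold only by the pseudocount, that makes 3 of 6, where 2.99% were lower.

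C1ql3 averaged 101 CPM with Zeb2 and 2.13 CPM without, a log2 ratio of 5.03, and it was higher on 11 of the 11 plates with at least 3 cells on each side (log2 ratios of 3.49 to 6.62). It had a read in 80.7% of the cells with Zeb2 (exact 95% interval 73.4 to 86.7) and in 16.6% of those without. C1ql1 was higher on the same 11 plates, at 22.8 against 5.33 CPM (81.3 and 20.0% of cells), with log2 ratios of 0.14 to 2.30 and a median of 1.04. In the mixed dissection alone it was 23.2 against 7.85 CPM. Cbln4 was rare, with a read in 12 of the 150 cells (8.00%, 4.20 to 13.6) against 65.6% of the rest, at 5.15 against 107 CPM, and lower on 11 of 11 plates. Cbln2 stayed broad, in 94.7% of the cells with Zeb2 at 85.6 CPM and in 72.6% of the others at 119 CPM.

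Cbln1 averaged 1.02 CPM with Zeb2 and 3.26 without, lower on 10 of 11 plates, with a log2 ratio of -1.08 that ran from -1.22 to -0.94 when each plate was left out and passed below 2-fold without plate 48. C1ql2 had no read in the 150 cells, which allows a share of up to 2.00% (exact 95% limit 2.43%), against 4.59% of the others. No fold is given for it, since the exact limit leaves room for a difference under 2-fold. Zeb2 is also used by microglia. The microglial genes named above summed to 1.06 CPM in cells with Zeb2, led by C1qb at 0.567 CPM and with C1qa at 0, and to 0.254 CPM without. The serotonin neuron genes summed to 17767 CPM in cells with Zeb2. The median number of reads was 864648 with Zeb2 and 820062 without.

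C1ql3 thus occurred at a high and a low level, and Zeb2 divided them. The 121 cells with reads of both had a median of 119 CPM of C1ql3, with the middle 80% from 50.1 to 201 CPM, and 109 of them reached 50 CPM. The 141 cells with C1ql3 and no Zeb2 had a median of 9.04 CPM, from 1.66 to 30.0 CPM, and 5 reached 50 CPM. Cbln4 had a read in 6.61% of the first and 46.8% of the second.

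Since only 3 pDR cells had a read of Zeb2, the dissections were compared again in cells without it, an alternative chosen after these values were known. C1ql3 then averaged 2.36 CPM in 287 pDR cells and 2.01 CPM in 562 mixed cells, a log2 ratio of 0.16, and the plates overlapped, at 1.42 to 3.21 against 0.427 to 3.61 CPM. In these cells C1ql1 remained lower in pDR, at 0.388 against 7.85 CPM (log2 ratio -2.67). In cells with neither Zeb2 nor Irx2 it was still lower, at 0.402 against 3.55 CPM (-1.70), but the plates overlapped, at 0.170 to 0.548 against 0.468 to 19.0 CPM. Cbln4 there averaged 127 CPM in pDR and 129 CPM in the mixed dissection, with a read in 81.6 and 73.8% of cells. For Cbln2 the mean level stayed lower in pDR there, at 80.2 against 126 CPM, with overlapping plates (49.5 to 95.1 against 80.2 to 194 CPM).

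**Figure D2:**
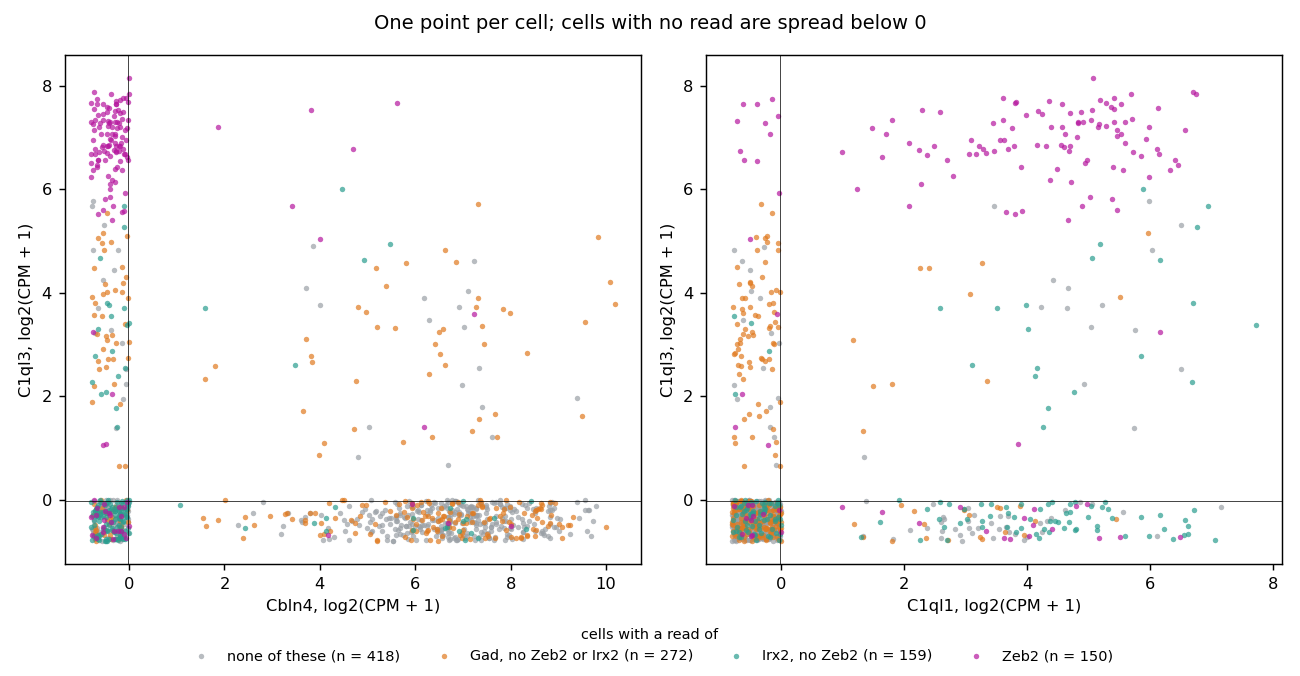
C1ql3 against Cbln4 (left) and against C1ql1 (right) in 999 cells, both axes as log2 of CPM plus 1, with 1 point per cell, cells without a read spread at random below 0, and colours for cells with a read of Zeb2, of Irx2 or of Gad1 or Gad2. Cells with Zeb2 form the group high in C1ql3, most of them with C1ql1 and 8.00% of them with Cbln4.

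Irx2, a homeobox transcription factor gene, had a read in 164 cells, 154 of them in the mixed dissection. These cells shared C1ql1 with the Zeb2 cells but little C1ql3. C1ql1 and Cbln1 were at least 2-fold higher with Irx2 (2 of 6, where 0.552% of all genes tested were higher), and C1ql3 and Cbln4 were lower. With C1ql2, at 0 again and past the threshold only by the pseudocount, that makes 3 of 6, where 1.05% were lower. For C1ql3 the comparison includes the Zeb2 cells on the other side, and against cells with none of the markers it was not lower (15.2% of the cells with Irx2 only at 2.15 CPM, 11.9% of the cells with no marker at 1.81 CPM).

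Cbln1 averaged 6.37 CPM with Irx2 and 2.25 CPM without, and had a read in 52.4% (exact 95% interval 44.5 to 60.3) and 22.6% of cells, higher on 11 of 12 plates. C1ql1 averaged 18.8 and 5.84 CPM, higher on 9 of 12 plates. C1ql3 averaged 2.26 and 19.9 CPM and Cbln4 16.2 and 107 CPM. The level of Cbln4 was lower on 10 of 12 plates, and its share was 17.1% with Irx2 and 64.8% without. C1ql2 had no read in the 164 cells, which allows a share of up to 1.83% (exact 95% limit 2.22%). The reads per cell had a median of 783036 with Irx2 and 843549 without. In pDR, with 10 Irx2 cells, C1ql1 and Cbln1 pointed the other way (log2 ratios of -0.56 and -1.36), so the result describes the mixed dissection. Zeb2 and Irx2 were both read in 5 cells, where 29.9 were expected within plates.

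Npy2r, which codes for a receptor of neuropeptide Y, was read in cells with more Cbln4 and Cbln2. It had a read in 265 cells, 105 of them from pDR, and the median number of reads was 905102 with it and 797096 without. Cbln4 was at least 2-fold higher (1 of 6, where 0.266% of all genes tested were higher), and C1ql1 and C1ql3 were at least 2-fold lower (2 of 6, where 0.568% were lower).

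Cbln4 averaged 168 CPM with Npy2r and 64.2 CPM without, and had a read in 92.8% (exact 95% interval 89.0 to 95.6) and 44.0% of cells. It was higher on 15 of 15 plates. The other side of this comparison includes the Zeb2 and Irx2 cells, which had little Cbln4. Against the cells with none of the markers the gap was smaller, 153 CPM with Npy2r only and 119 CPM with no marker, and in pDR it turned, 140 and 157 CPM. Cbln2 averaged 181 and 90.3 CPM and was also higher on 15 of 15 plates, just under 2-fold on the log2 scale with 1 added (0.99), with a read in 76.6 and 75.6% of all cells, which was 69.5 and 51.4% in pDR and 81.2 and 83.8% in the mixed dissection. C1ql1, at 1.01 against 10.5 CPM, was lower on 15 of 15 plates, and C1ql3, at 1.08 against 22.7 CPM, on 14 of 15. Among cells with Npy2r only and cells with no marker, C1ql1 averaged 0.76 and 4.61 CPM, and C1ql3 0.034 and 1.81 CPM. In pDR alone Cbln4 (log2 ratio 0.92), C1ql1 (-0.44) and C1ql3 (-0.52) were below 2-fold and Cbln2 (1.67) was past it, whereas in the mixed dissection Cbln4 (1.55), C1ql1 (-2.54) and C1ql3 (-4.15) were past 2-fold.

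Gad1 and Gad2 code for the enzymes that make GABA. A read of either was found in 347 cells, 183 of them from pDR, and these cells had less Cbln2. Cbln2 was at least 2-fold lower with Gad1 or Gad2 (1 of 6, where 0.294% of all genes tested were lower), and no member was 2-fold higher (0.886% of all genes tested were). The call was at the threshold, with a log2 ratio of -1.01 over all cells and a plate median of -0.72, and it ran from -1.07 to -0.89 when each plate was left out, passing below 2-fold without plate 12, 13, 25, 39, 40 or 57.

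Cbln2 averaged 68.4 CPM with Gad1 or Gad2 and 139 CPM without, lower on 14 of 16 plates, and had a read in 52.5% (exact 95% interval 47.1 to 57.8) and 88.3% of cells. The difference was larger in pDR than in the mixed dissection, without a test of it. In pDR it was 41.2 against 147 CPM (41.0 and 86.9% of cells), lower on 5 of 5 plates. In the mixed dissection it was 98.8 against 137 CPM (65.2 and 88.6% of cells), lower on 9 of 11. The reads per cell had a median of 796097 with Gad1 or Gad2 and 847035 without. The oligodendrocyte genes summed to 254 CPM in cells with Gad1 or Gad2, which include the cell high in Mbp, to 52.4 CPM without that cell, and to 76.7 CPM in cells without Gad1 or Gad2.

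In pDR, C1ql3 was found almost wholly in Gad1 or Gad2 cells. It had a read in 60 of 183 such cells (32.8%, exact 95% interval 26.0 to 40.1) and in 4 of the 107 others (3.74%, 1.03 to 9.30), at 3.55 against 0.283 CPM and higher on 5 of 5 plates (log2 ratios of 1.44 to 2.47). Of the 64 pDR cells with C1ql3, 60 had Gad1 or Gad2 (93.8%), where 63.1% of all pDR cells had. In the mixed dissection the shares were 39.6 and 24.4%, with C1ql3 higher on 7 of 11 plates. The low level of C1ql3 was found in both dissections. Among cells with Gad1 or Gad2 and without Zeb2, Irx2 and Npy2r, it averaged 3.76 CPM in 125 pDR cells and 3.62 CPM in 74 mixed cells, with a read in 36.0% (27.6 to 45.1) and 31.1% (20.8 to 42.9).

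Slc17a8, the gene of the vesicular glutamate transporter VGLUT3, was read in 649 cells, 131 of them from pDR. C1ql1 was just past 2-fold higher with Slc17a8 (1 of 6, log2 ratio 1.02, where 0.278% of all genes tested were higher) and no member was 2-fold lower (0.619% of all genes tested were). C1ql1 averaged 9.90 CPM with Slc17a8 and 4.36 CPM without and was higher on 13 of 16 plates, but it was past 2-fold only with the dissections pooled (0.92 to 1.17 when each plate was left out), with log2 ratios of 0.17 in pDR and 0.61 in the mixed dissection. Cbln4, at 111 against 55.7 CPM (log2 ratio 0.98), was higher on 15 of 16 plates and was past 2-fold in each dissection, at 1.03 in pDR and 1.51 in the mixed one. Within pDR, Cbln2 averaged 134 CPM with Slc17a8 and 36.4 CPM without (76.3 and 42.8% of cells), higher on 5 of 5 plates, while in the mixed dissection it was 133 and 116 CPM. Of the 159 pDR cells without Slc17a8, 136 had Gad1 or Gad2, with Cbln2 in 36.0% of them, and the 23 with neither had it in 82.6%, near the 88.1% of the 84 cells with Slc17a8 and no Gad1 or Gad2. C1ql3 had a read in 12.2% of pDR cells with Slc17a8 and 30.2% of those without, with a lower level on 5 of 5 plates. In the mixed dissection its shares were 27.6 and 28.8%, at 23.0 and 22.8 CPM, with a higher level on 7 of 11 plates. Slc17a8 cells were also the deeper ones, with a median of 867515 reads against 768896.

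Classes of cells that share no cell were compared, since many cells carried several markers. The 105 cells with Zeb2 and none of Irx2, Npy2r, Gad1 and Gad2 had C1ql3 in 81.0% and Cbln4 in 4.76%. The 112 with Irx2 alone of these had Cbln1 in 59.8% (exact 95% interval 50.1 to 69.0), the highest share of that gene in any of the classes, C1ql1 in 51.8% and C1ql3 in 15.2%. The 175 with Npy2r alone had Cbln4 in 97.7% (94.2 to 99.4), at 153 CPM, and Cbln2 in 86.9% at 214 CPM, with C1ql3 in 3 cells. The 199 with Gad1 or Gad2 alone had Cbln2 in 40.7% (33.8 to 47.9) at 35.4 CPM, the lowest of the classes, and Cbln4 in 64.8%. The 243 cells with none of these markers had Cbln2 in 84.8%, Cbln4 in 68.7% and C1ql2 in 7.00% (4.13 to 11.0). The level of Cbln4 in the Npy2r class was similar in the dissections, 140 CPM in pDR and 158 CPM in the mixed one, with a read in 98.0 and 97.6% of cells.

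**Figure D3:**
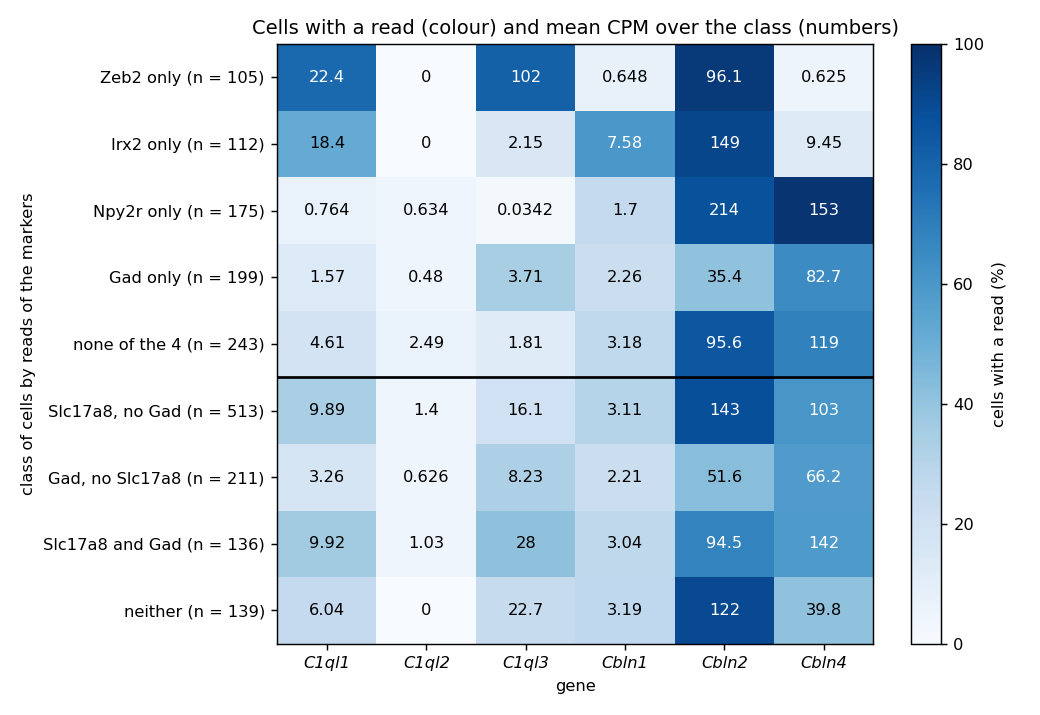
Cells with a read of each gene (colour, percent) and its mean CPM over all cells of the class (printed number) in classes by reads of Zeb2, Irx2, Npy2r and Gad1 or Gad2 (above the line) and of Slc17a8 and Gad1 or Gad2 (below it). C1ql3 reaches 102 CPM in cells with Zeb2 only, Cbln4 153 CPM in cells with Npy2r only, Cbln2 is palest in cells with Gad only, and C1ql2 is at 0 in 3 classes.

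C1ql2 was read in few cells, and each of them had Cbln4. All 39 cells with C1ql2 also had Cbln4 (39 of 39, where 57.0% of all cells had), at a mean Cbln4 level of 286 CPM against 83.8 CPM in cells without C1ql2. Of the 39, 30 had Slc17a8, 14 had Npy2r, 15 had Gad1 or Gad2 and 23 had Cbln1, and none had Zeb2, Irx2 or C1ql3.

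Whether the genes avoid or accompany each other was measured as the number of cells with reads of both over the number expected if the 2 genes were independent within each plate. Of the 15 pairs, 2 had at most 0.5 times the expected number, and 0 had at least 2 times. Among the 114431 pairs of one of the genes with any other gene for which at least 5 cells were expected, 1.11% were at most 0.5 and 0.165% at least 2. The 2 pairs were those of C1ql2 with the other C1ql genes. C1ql2 was read together with C1ql3 in 0 cells, where 7.76 were expected, and with C1ql1 in 1 cell, where 7.45 were expected. No pair was called over the expected number, but C1ql2 with Cbln1 came close, in 23 cells where 11.6 were expected (1.99 times). A pair with a widely read gene has a ceiling. Cbln2 was read in 75.9% of cells, and no pair with it could reach 2 times. C1ql2 with Cbln4 was at its ceiling, at 1.48 times with all 39 cells. The lack of calls over the expected number therefore says nothing about these pairs.

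The C1ql genes differed in their overlap with Cbln4, with no test of that difference. C1ql3 and Cbln4 were read together in 74 cells, 28.2% of the cells with C1ql3 and 13.0% of those with Cbln4, where 130 were expected (0.57 times), fewer than expected on 16 of 16 plates. C1ql1 and Cbln4 were read together in 65 cells, 22.3% of the cells with C1ql1 and 11.4% of those with Cbln4, where 129 were expected (0.50 times), fewer on 12 of 16 plates. Both genes were thus less often read with Cbln4 than expected without excluding it. For C1ql1 this describes the mixed dissection. There its Pearson correlation of ln(CPM + 1) with Cbln4 was -0.47, against -0.0008 in pDR, where 18 cells had C1ql1. For C1ql3 and Cbln4 it was -0.39 in the mixed dissection and -0.32 in pDR. C1ql2 and Cbln4 went the other way, with 39 cells where 26.3 were expected, more than expected on 13 of 13 plates. When only cells from 10 CPM were counted, C1ql3 and Cbln4 met in 31 of 179 C1ql3 cells (0.43 times the expected number).

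C1ql1 and C1ql3 overlapped, in 151 cells where 94.6 were expected (1.60 times), which is 51.7% of the cells with C1ql1 and 57.6% of those with C1ql3. The overlap exceeded the expected number on 12 of 16 plates. As a description over the 999 cells, which share plates and depth, the Pearson correlation of ln(CPM + 1) was 0.49, and over the 290 pDR cells it was -0.02. C1ql3 and Cbln1 met less often, in 47 cells where 68.0 were expected (0.69 times, fewer on 14 of 16 plates). For the cerebellins the observed and expected numbers were close. Cbln2 and Cbln4 were read together in 408 cells where 411 were expected, and Cbln1 with Cbln2 and with Cbln4 in 1.06 and 0.99 times the expected number. Over the pooled cells Cbln4 averaged 67.3 CPM in cells with Cbln2 and 168 CPM in cells without it. This gap pools the dissections, and the correlation of the 2 genes was 0.16 in pDR and -0.08 in the mixed dissection. For Cbln1 and Cbln4 it was 0.31 in pDR and -0.03 in the mixed dissection.

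**Figure D4:**
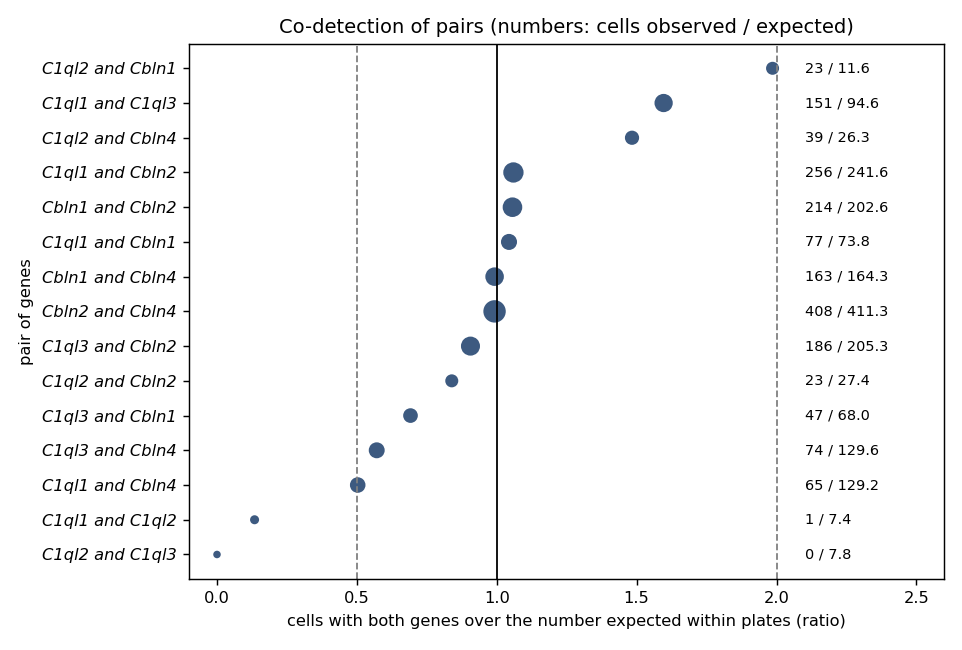
Cells with both genes of each pair over the number expected within plates (horizontal axis, a ratio), with point area growing with the number of cells with both and the observed and expected cells printed at the right. Dashed lines mark 0.5 and 2 times the expected number. C1ql2 with C1ql3 lies at 0, C1ql1 and C1ql3 with Cbln4 near the lower line, and the pairs of cerebellins near 1.

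For each gene, the genes most like it were taken as those with the highest Pearson correlation of ln(CPM + 1) over the 999 cells, among the 8087 genes with a mean over 10 CPM. These values are descriptions, since cells share plates and depth. C1ql3 was nearest to Pter (r = 0.91), followed by Cxcl12, a chemokine gene (0.74), Chrm2, a muscarinic receptor gene (0.67), Stxbp6 (0.64) and Pou3f1, a transcription factor gene (0.59). C1ql1 was nearest to the nuclear receptor gene Nr2f2 (0.52) and to Cxcl12 (0.52), then to Pter (0.50), C1ql3 (0.49) and Rab3b (0.48).

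Cbln4 was nearest to Kcnab1, which codes for a potassium channel subunit (r = 0.74), and which averaged 66.9 CPM in cells with Cbln4 and 4.85 CPM in the others. The glutamate receptor subunit gene Grin2a (0.58), the calcium-binding protein gene Calb1 (0.57), the homeobox gene En1 (0.56) and Frmpd4 (0.55) came next. Cbln2 was nearest to Spock3 (0.54), the glutamate receptor gene Grm7 (0.50), Capn2 (0.48), the protein kinase C gene Prkcb (0.45) and Rcan2 (0.43). For C1ql2 the nearest was Nos1, the gene of neuronal nitric oxide synthase (0.34), which averaged 82.9 CPM in the 39 cells with C1ql2 and 9.27 CPM in the others. The highest value for Cbln1 was 0.22 (Gfra1), which is weak in counts with so many zeros and is no finding.

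Pter, the nearest gene to C1ql3 in its values, is also its neighbour on the chromosome. Pter lies at chr2:12924041-13003455 on the plus strand and C1ql3 on the minus strand, end to end, with 1 base between their annotated ends. Both had a read in 218 cells, C1ql3 alone in 44, Pter alone in 29 and neither in 708. Of the 132 cells with at least 20 reads of C1ql3, 128 had a read of Pter, and in these 132 cells the reads of Pter over those of C1ql3 had a median of 0.80, with the middle 80% from 0.25 to 1.34. In cells with Zeb2 and C1ql3, Pter was read in 98.3%, and in cells with C1ql3 and no Zeb2 in 70.2%. The correlation was 0.96 in the 150 cells with Zeb2, 0.68 in the 849 without and 0.66 in pDR. Since strand was ignored, transcripts of one gene that run past its end and into the other cannot be told apart from transcripts of the other, and the values of both are uncertain to that extent. Of the genes that overlap a member on the other strand, Gm37811 was close to C1ql3 (r = 0.83), Gm2694 was read in 630 cells but followed Cbln1 weakly (0.22), and Gm26668 had a correlation of 0.04 with C1ql1.

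**Figure D5:**
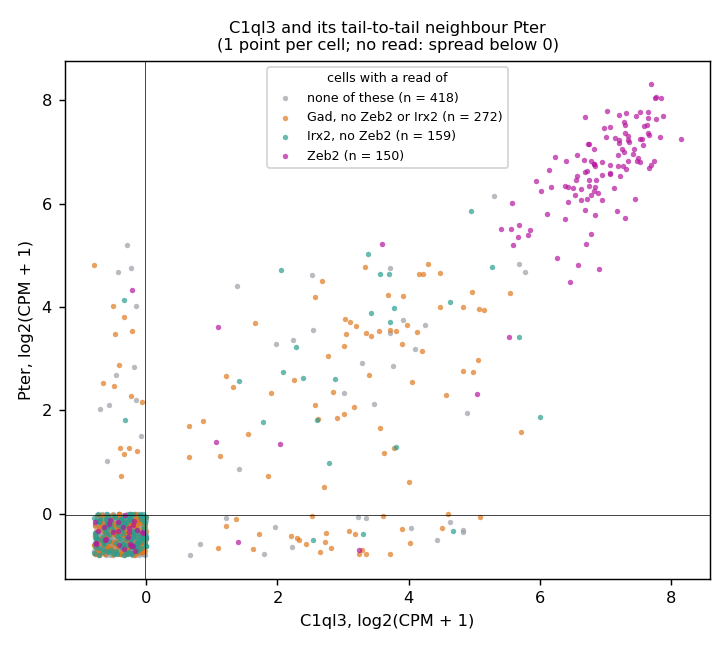
Pter against C1ql3 in 999 cells, both axes as log2 of CPM plus 1, with 1 point per cell, cells without a read spread at random below 0, and colours for cells with a read of Zeb2, of Irx2 or of Gad1 or Gad2. The Zeb2 cells lie at the upper end of both axes, 29 cells have Pter without C1ql3 and 44 have C1ql3 without Pter.

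The receptors of these proteins were read in the same cells. Of a list of 8 partners, Nrxn2 had a read in 989 cells, Grik2 in 960, Grid1 in 900, Nrxn3 in 881, Neo1 in 845, Adgrb3 in 819, Grik4 in 624 and Dcc in 519. None of the 8 was 2-fold higher or lower in pDR, where 1.54 and 0.901% of all genes tested were. The median log2 ratio of the list was -0.06. With Zeb2, 1 of the 8 was at least 2-fold higher (1.69% of all genes tested) and 1 at least 2-fold lower (2.99%). Nrxn3, a neurexin that binds C1q-like proteins, was higher, at 361 against 74.1 CPM and on 11 of 11 plates. Dcc, a receptor of Cbln4, was lower, at 2.98 against 7.46 CPM and on 10 of 11 plates. None of the 8 was 2-fold different with Irx2, Slc17a8, Npy2r or Gad1 or Gad2. Of all genes tested, 0.266 to 1.05% were, by marker and direction.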

How the data were processed

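The authors sequenced 75-base read pairs (bcl2fastq 2.19.0.316), aligned them to mm10 with STAR 2.6.1a, counted reads per gene with HTSeq 0.11.2 ignoring strand, dropped Y chromosome genes and deposited CPM per cell. In each cell all values above 0 were whole multiples of 1 read (100%, tolerance 0.001), which gave reads per cell (median 827283, 96834 to 2780443) and genes per cell (median 9554). No count test was run, since cells could not be tied to animals and each dissection was treated as 1 sample.

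Of 1536 labelled cells, 999 were in the table and 537 were not analysed here. All passed the minimums of 300 genes and 50000 reads. Cells were sorted singly and no doublet caller was run. The members and lists were chosen with earlier results of these data known, so support from them is not independent.

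Contrasts are log2 ratios of mean CPM with a pseudocount of 1. One is called from 2-fold, over 25522 genes with a read in at least 3 cells, and was repeated in each plate with at least 3 cells on each side. Expected pairs were summed over plates. Shares carry Clopper-Pearson 95% intervals, and 0 cells allow 3 cells of the total. Named genes were the 6 members, the markers, the 5 nearest genes of each member and the listed relatives, partners and organizers that a result turns on. Some genes of these lists are not reported here. Steps were tested on simulated data. Python 3.11.15, NumPy 2.4.6, SciPy 1.17.1, pandas 2.3.3 and matplotlib 3.10.9 were used. Alternatives were detection from 5 reads or 10 CPM, thinning to 250000 reads, a pseudocount of 10, a minimum mean of 10 CPM, a marker from 10 CPM, plates weighted equally, each dissection alone and each plate left out.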

Additional observations from a re-analysis of the deposited data

How the results depend on the processing

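No paired analysis was possible because the replicate numbers only name cells and pair none across dissections. Cells with and without a marker were compared within plates in the report. Shares depended on the detection rule. From 5 reads they were 23.6% for C1ql1, 20.8% for C1ql3 and 16.8% for Cbln1, and from 10 CPM 19.8, 17.9 and 11.5%, with 72.3% for Cbln2. Thinned to 250000 reads, Cbln1 was at 22.3%. With a pseudocount of 10 CPM the dissection contrast was -1.01 for C1ql1 and -1.42 for C1ql3, and the genes 2-fold lower and higher in pDR numbered 46 and 102 instead of 230 and 392. Among genes with a mean over 10 CPM they numbered 82 and 189, with 1 member lower. In cells without Zeb2 the contrast of C1ql3 turned to 0.16, without Zeb2 or Irx2 to 0.21, and that of C1ql1 was -1.70 in the latter (both chosen after seeing the data). Pairs with at least 2 times the expected cells numbered 1 from 5 reads, from 10 CPM and with the expected number taken over all cells at once. Pairs with at most 0.5 times numbered 4, 5 and 4 from 5 reads, from 10 CPM and over all cells at once.

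In pDR alone, where 3 cells have Zeb2 and 10 Irx2, the Zeb2 contrast was -1.12 for C1ql3 and 1.09 for Cbln1, and the Irx2 contrast -0.56 for C1ql1 and -1.36 for Cbln1. Members 2-fold higher in pDR alone numbered 0 with Irx2, 2 with Slc17a8 and 1 with Gad1 or Gad2, and 0 were lower with Npy2r. The shares of all genes tested given above are for all cells at the main settings. The counts of members in this paragraph are therefore not set against them and describe these settings only. With a pseudocount of 10 CPM 1 was lower with Zeb2, 0 higher with Irx2, 0 higher with Slc17a8, 1 lower with Npy2r and 0 lower with Gad1 or Gad2. With Npy2r, 2 were higher with plates weighted equally or the marker from 10 CPM. With Gad1 or Gad2, 0 were lower with plates weighted equally or in the mixed dissection alone, and 1 was higher in cells without Zeb2 or Irx2. Leaving out each plate in turn gave 0 to 1 pairs over, 2 to 3 pairs under, 2 to 3 members lower with Zeb2, 0 to 2 higher with Slc17a8, 1 to 2 higher with Npy2r and 0 to 1 lower with Gad1 or Gad2. The cause of these changes was not tested. Thinning also took C1ql1 from 29.2 to 26.8%, C1ql3 from 26.2 to 24.0% and C1ql2 from 3.90 to 3.54%.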

Other observations

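Other synapse organizers, a list of 12 genes for secreted and membrane proteins, were read beside the members. Of the 12, 1 was at least 2-fold higher in pDR (1.54% of all genes tested) and 0 were 2-fold lower (0.901%). The higher one was Sparcl1, an organizer also made by glia, at 155 CPM in pDR and 70.9 CPM in the mixed dissection. Its plate means overlapped between the dissections. With Zeb2, 3 of the 12 were at least 2-fold lower (2.99% of all genes tested), of which the neuronal pentraxin gene Nptx1 (3.82 against 26.2 CPM) and Lgi3 (16.8 against 55.9 CPM) had reads and the glypican gene Gpc6 had none, against 3.12 CPM. With Gad1 or Gad2, 3 of the 12 were at least 2-fold higher (0.886% of all genes tested). Nptx1 was higher, at 35.1 against 16.4 CPM and on 13 of 16 plates, as were Sparcl1 (159 against 61.3 CPM, 12 of 16 plates) and Gpc6 (5.72 against 1.02 CPM, 15 of 16 plates). With Irx2, 1 of the 12 was at least 2-fold lower (1.05% of all genes tested), namely Gpc6, at 0.119 against 3.15 CPM and on 11 of 12 plates. With Slc17a8, 1 of the 12 was at least 2-fold lower (0.619% of all genes tested), namely Sparcl1, at 63.9 against 154 CPM. Nptx1 was also the gene with the most negative correlation with Cbln2 (r = -0.55 over 999 cells).

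For the nearest genes, a minimum mean of 2 CPM moved Cbln1 to Gpr149 (r = 0.27) and C1ql2 to Maf (0.49), and C1ql3 kept 2 of its 5 nearest genes, Pter and Cxcl12, beside Piezo2, Zeb2 and Bcl11b. The oligodendrocyte genes summed to 253 CPM in cells without Cbln4 and 52.1 CPM in cells with it, with medians of 27.0 and 18.5 CPM, and without the 1 cell high in Mbp the first was 89.8 CPM. Their part in the results for Cbln4 was not tested.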
